A study of Mus musculus with 10 samples.

Results

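The immunoglobulin heavy-chain genes of the mouse were followed across 4 Pax5 genotypes in 207 of the 25579 genes and transcript units of the expression files, chosen because their symbol starts with Igh. They were 181 V segments, 4 J segments and 22 units for the constant regions, whereas none was a D segment, and Ighmbp2, which carries the same prefix without being an immunoglobulin gene, was absent. The expression data were 8 libraries of polyadenylated RNA from bone marrow cells of C57BL/6 mice, 2 for each genotype: Pax5+/+ pro-B cells, Pax5+/- pro-B cells, Pax5R31Q/- pro-B cells, and cells labelled as progenitors from Pax5fl/fl mice with Vav-Cre. In Pax5R31Q/- cells the only Pax5 protein carried an exchange of arginine for glutamine in the DNA-binding paired domain, so that both Pax5+/- and Pax5R31Q/- cells had a single allele. Vav-Cre acts throughout the blood lineage, and the last group is therefore called Vav-Cre Pax5fl/fl. A second kind of data consisted of Pax5 ChIP-seq peaks from in vitro grown pro-B cells, with 1 library from Rag2-/- cells with wild-type Pax5 and 1 from Pax5R31Q/- cells. The labels gave no ages and did not say whether the 2 libraries of a genotype came from separate animals or cultures, so that every p-value measures the spread between these libraries alone, and the library numbers 1 and 2 are names without pairing.

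The heavy-chain locus is assembled in pro-B cells by V(D)J recombination, in which the RAG1 and RAG2 proteins first join a D to a J segment and then a V to the DJ element. They cut at recombination signal sequences, which consist of a heptamer, a spacer and a nonamer next to each segment. V segments near the D segments are called proximal and those at the other end distal, and Pax5, the factor that commits cells to the B lineage, is known to be required for contraction of the locus and for recombination of distal V segments. V segments are also transcribed before they recombine, as are the constant regions, whose germline transcripts start at promoters ahead of the switch regions. Polyadenylated RNA of a V segment can come from either state, and these cannot be told apart from a single value per segment, given as TPM (transcripts per unit of library total and gene length). The families Ighv2 and Ighv5 were taken as proximal (31 segments), Ighv1 and Ighv8 as distal (107 segments) and all others as intermediate (43 segments).

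The locus lies on the minus strand of chromosome 12 at chr12:113254830-116010093 (mm10), with 20 annotated D segments between 113430528 and 113526809. Distances are given in kilobases (kb) from the nearest D segment. An exact heptamer CACAGTG within 12 bases of the annotated V end was found at 108 of the 181 V segments, in 82 of 113 genes and 26 of 68 pseudogenes. The spacer that gave the best nonamer was 23 bases in 14 of 15 proximal segments with a heptamer, whereas it was 22 bases in 58 of 67 distal ones and in 9 of 26 intermediate ones. The signal sequences of 7 segments that carry the results are shown from the mm10 genome, in the direction of the V segment, with the heptamer and the nonamer in capitals and the spacer in lower case. They belong to 2 proximal segments (Ighv2-2, chr12:113588228-113588266, and Ighv2-9, chr12:113879057-113879095), 2 intermediate ones (Ighv14-2, chr12:113994431-113994468, and Ighv3-6, chr12:114288113-114288151) and 3 distal ones (Ighv1-64, chr12:115507506-115507544, Ighv1-78, chr12:115868735-115868772, and Ighv1-85, chr12:115999990-116000027).
Ighv2-2: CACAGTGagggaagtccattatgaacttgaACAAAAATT
Ighv2-9: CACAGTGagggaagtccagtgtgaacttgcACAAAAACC
Ighv14-2: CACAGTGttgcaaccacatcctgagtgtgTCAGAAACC
Ighv3-6: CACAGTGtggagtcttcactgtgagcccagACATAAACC
Ighv1-64: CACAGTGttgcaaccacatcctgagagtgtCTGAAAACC
Ighv1-78: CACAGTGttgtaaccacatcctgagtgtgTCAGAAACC
Ighv1-85: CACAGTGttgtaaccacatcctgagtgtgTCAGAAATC

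Sequencing depth was 21648978 to 34528482 reads on genes per library, of which the heavy-chain units took 0.0384% to 0.0598% and the V segments 5218 to 11269 reads. Of the 207 members, 24 were at 0 in every library and 154 reached 1 TPM in at least 1 library and were tested, which were 146 V segments (19 proximal, 35 intermediate, 92 distal), the 4 J segments and 4 constant-region units. The others were not tested. V segments resemble each other, and reads that map to several places were not counted: 44 of 181 had no stretch of 50 bases that recurred elsewhere in the genome, and the median segment had 83.3% unique stretches. Pax5 itself was present at 418 and 444 TPM in Pax5+/+, 272 and 287 in Pax5+/-, 306 and 293 in Pax5R31Q/- and 1242 and 1409 in Vav-Cre Pax5fl/fl libraries. These are single values per gene, in which the deleted part cannot be separated from the rest, so that they do not check the deletion. Of the genes that mark pro-B cells, Igll1 and Vpreb1, which encode the surrogate light chain, were at 2722 to 3970 and 2386 to 3479 TPM in the first 3 genotypes and at 1080 to 1298 and 1042 to 1107 TPM in Vav-Cre Pax5fl/fl libraries. Dntt, which adds bases at the joints, was at 2277 to 3525 TPM in the first 3 genotypes and at 3566 and 3072 TPM in Vav-Cre Pax5fl/fl libraries.

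The libraries of a genotype did not always resemble each other in their distal segments, which bears on every result for that class. Among segments with at least 5 TPM in 1 of the 2 libraries, 25 of 103 were more than 3-fold higher in Pax5+/+ library 1 than in library 2, and 22 of these were distal, whereas 2 were higher in library 2. The same split was seen for 10 of 97 segments in Pax5+/- library 2 (9 distal) and for 18 of 92 in Pax5R31Q/- library 2 (17 distal), with 0 the other way in both genotypes. Ighv1-64, a distal segment at 1981 kb, was at 126 and 18.5 TPM in Pax5+/+, 16.0 and 88.4 in Pax5+/-, 7.80 and 176 in Pax5R31Q/- and 63.0 and 52.2 in Vav-Cre Pax5fl/fl libraries. Ighv1-53 at 1632 kb followed with 86.6 and 18.8, 17.2 and 65.6, 10.8 and 134, and 50.3 and 36.3 TPM in the same order of genotypes. Ighv1-69 varied less, at 59.8 and 35.8, 21.6 and 44.6, 12.7 and 64.4, and 41.5 and 45.0 TPM. For these 3 segments the ranges of the first 3 genotypes overlapped, and no difference between genotypes could be seen over the spread between libraries. What the high libraries shared was not tested.

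**Figure D1:**
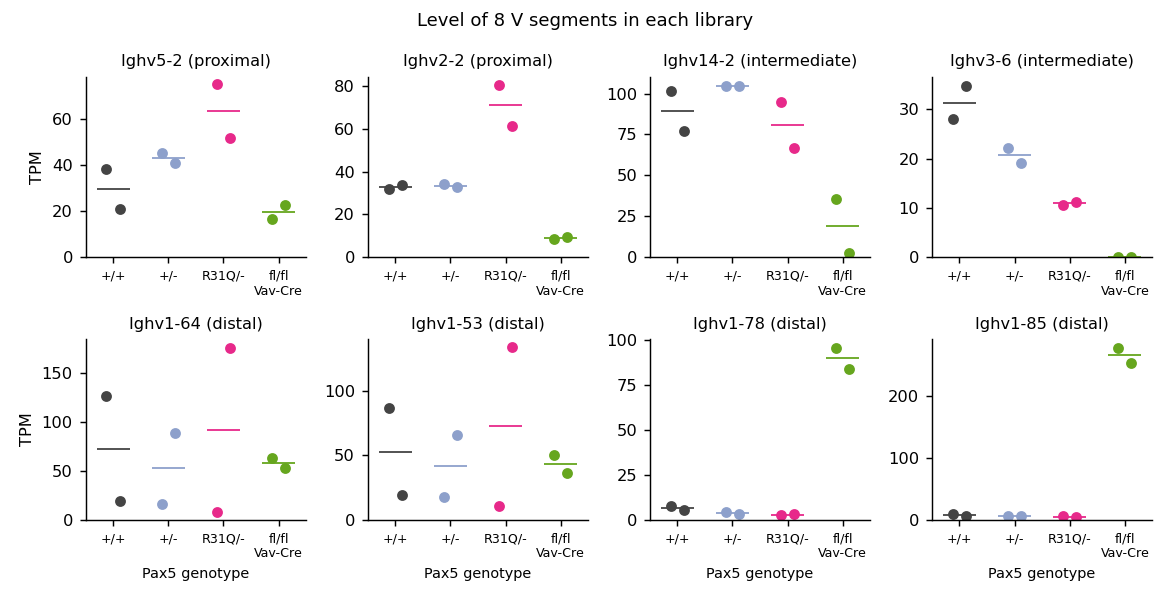
TPM (y axis) of 8 V segments in each library (points) by Pax5 genotype (x axis), with the mean of the 2 libraries as a line. Ighv2-2 was highest in both Pax5R31Q/- libraries, Ighv3-6 was lower in each genotype in turn and 0 in Vav-Cre Pax5fl/fl libraries, Ighv1-64 and Ighv1-53 had 1 high and 1 low library in each of the first 3 genotypes, and Ighv1-78 and Ighv1-85 were high only in Vav-Cre Pax5fl/fl libraries.

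Summed over all V segments, the RNA level overlapped between the 4 genotypes, whereas its distribution over the locus differed. The sum was 2219 and 1153 TPM in Pax5+/+, 1288 and 1743 in Pax5+/-, 1367 and 1904 in Pax5R31Q/- and 1617 and 1706 in Vav-Cre Pax5fl/fl libraries. Distal segments made up 61.2% and 48.8% of it in Pax5+/+, 47.1% and 58.7% in Pax5+/-, 33.8% and 63.9% in Pax5R31Q/-, and 90.8% and 92.7% in Vav-Cre Pax5fl/fl libraries. The mean distal share was thus 55.0% ± 8.76 (SD, n = 2), 52.9% ± 8.24, 48.9% ± 21.3 and 91.8% ± 1.34, and the Vav-Cre Pax5fl/fl values did not overlap with any others. An exact permutation test of 2 against 2 libraries cannot give a p-value under 0.333, and none was computed for these sums. In bulk RNA, fewer cells with a given segment and less RNA per cell cannot be told apart.

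The summed level of the proximal class was highest in Pax5R31Q/- and lowest in Vav-Cre Pax5fl/fl libraries. It was 280 and 220 TPM in Pax5+/+, 275.5 and 264.8 in Pax5+/-, 495 and 383 in Pax5R31Q/- and 42.7 and 48.9 in Vav-Cre Pax5fl/fl libraries. Both Pax5R31Q/- values were above all others and both Vav-Cre Pax5fl/fl values below all others, without a test. As a share of the V segment sum the proximal class was at 12.6% and 19.1% in Pax5+/+, 21.4% and 15.2% in Pax5+/-, 36.2% and 20.1% in Pax5R31Q/- and 2.64% and 2.86% in Vav-Cre Pax5fl/fl libraries, so that Pax5R31Q/- overlapped with Pax5+/- by share. The intermediate class was at 582 and 371, 406 and 455, 409 and 304, and 106 and 75.7 TPM, so that only the Vav-Cre Pax5fl/fl libraries stood apart. The distal class, at 1357 and 562, 606 and 1023, 462 and 1217, and 1469 and 1582 TPM, was highest in both Vav-Cre Pax5fl/fl libraries without overlap and was spread too widely within the first 3 genotypes for an order among them.

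**Figure D2:**
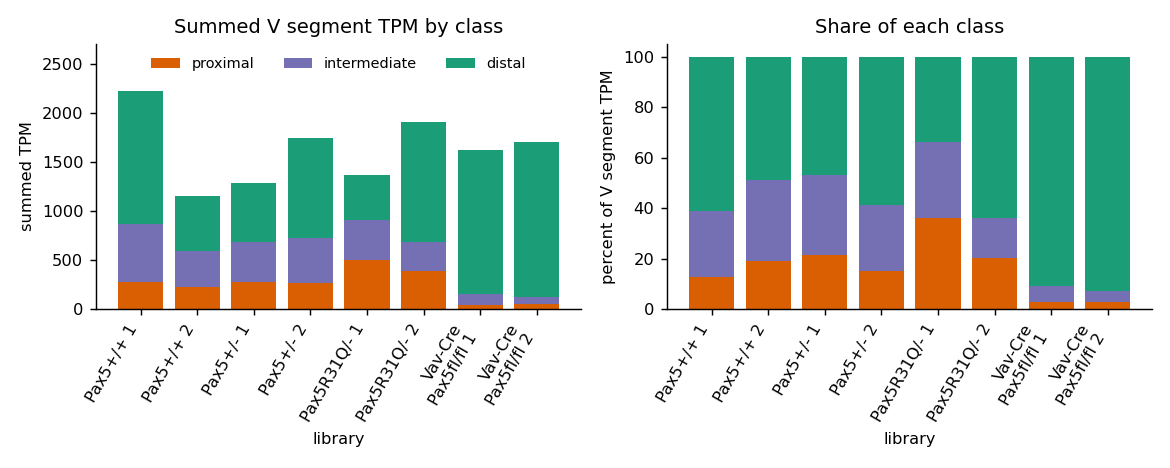
Summed TPM of the proximal, intermediate and distal V segments in each library (left, stacked bars) and the percent of the V segment sum in each class (right). Distal segments made up more than 90% in both Vav-Cre Pax5fl/fl libraries and 33.8% to 63.9% in the other 6.

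By family, the proximal Ighv2 summed to 124 and 131 TPM in Pax5+/+, 116 and 128 in Pax5+/-, 223 and 184 in Pax5R31Q/- and 13.7 and 17.0 in Vav-Cre Pax5fl/fl libraries, and Ighv5 to 156 and 89.0, 159 and 137, 272 and 198, and 29.1 and 31.9 TPM. The TPM of both families was highest in the Pax5R31Q/- libraries without overlap, whereas by share of the V segment sum Ighv2 overlapped with Pax5+/+ (9.68% to 16.3% against 5.59% to 11.3%) and Ighv5 with Pax5+/- (10.4% to 19.9% against 7.84% to 12.4%). The intermediate family Ighv3 showed 78.8 and 71.8 TPM in Pax5+/+, 46.2 and 61.9 in Pax5+/-, 38.6 and 45.8 in Pax5R31Q/- and 0 and 0.2 in Vav-Cre Pax5fl/fl libraries, so that by TPM the other 3 genotypes stood below Pax5+/+ without overlap, whereas by share of the V segment sum Pax5+/- overlapped with Pax5+/+ (3.550% to 3.583% against 3.550% to 6.23%). Ighv14, the most abundant intermediate family, was at 235 and 140.5, 175 and 204, 175 and 125, and 65.3 and 11.5 TPM. The distal family Ighv1 summed to 1264 and 496, 560 and 925, 407 and 1152, and 1384 and 1427 TPM, and Ighv8 to 92.8 and 66, 46.6 and 98.0, 55.7 and 65.4, and 84.9 and 155 TPM. Ighv1 was highest in both Vav-Cre Pax5fl/fl libraries and did not separate the other 3 genotypes. Ighv8 was lower in both Pax5R31Q/- than in both Pax5+/+ libraries, narrowly by TPM and also by share (3.44% to 4.07% against 4.18% to 5.73%). Its Pax5+/- values overlapped with both genotypes.

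The V segment RNA was spread over fewer segments in Vav-Cre Pax5fl/fl cells, which does not measure how often a segment was recombined. The effective number of V segments, which is 1 divided by the sum of their squared TPM shares, was 56.9 and 60.9 in Pax5+/+, 54.2 and 56.7 in Pax5+/-, 46.3 and 36.0 in Pax5R31Q/- and 20.3 and 24.5 in Vav-Cre Pax5fl/fl libraries. The 4 genotypes did not overlap, although Pax5+/+ and Pax5+/- came within 1 of each other. The top segment was Ighv1-85 in both Vav-Cre Pax5fl/fl libraries, with 17.2% and 14.9% of the V segment sum. In the other libraries it was Ighv14-2 or Ighv1-64, with 5.67% to 9.22%. The mean distance from the D segments, weighted by TPM, was 792 to 1253 kb in the first 3 genotypes and 1812 and 1847 kb in Vav-Cre Pax5fl/fl cells.

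**Figure D3:**
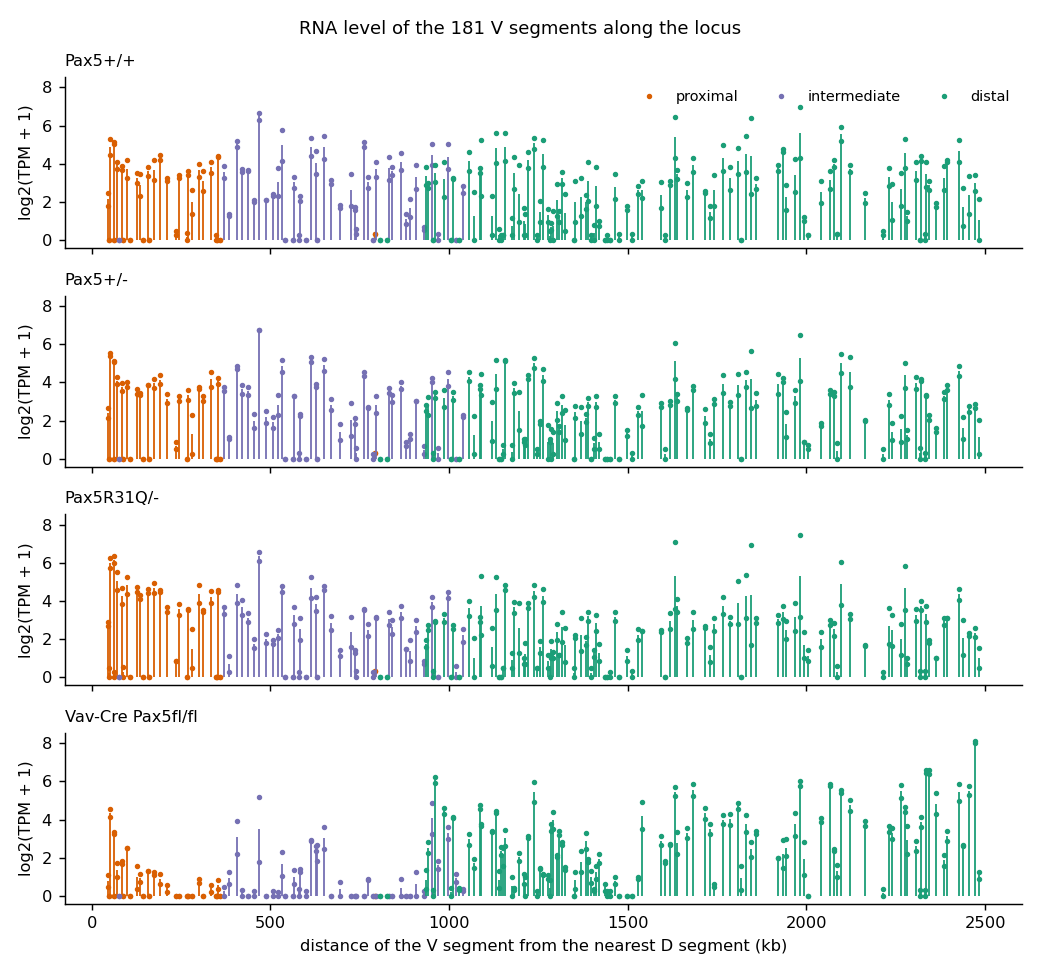
RNA level (log2 of TPM + 1, y axis) of the 181 V segments against their distance from the nearest D segment (kb, x axis), 1 panel for each genotype. Points are the 2 libraries and lines reach to their mean. In Vav-Cre Pax5fl/fl cells most proximal and intermediate segments were near 0, and Ighv1-85 at 2473 kb had the highest level of any panel.

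The comparison of Vav-Cre Pax5fl/fl with Pax5+/+ cells addressed, per the labels, the deletion of Pax5. A gene was called when limma on log2(TPM + 1) gave a Benjamini-Hochberg adjusted p under 0.05, the change exceeded 3-fold and the mean exceeded 5 TPM in 1 of the 2 genotypes. By this rule 45 of the 154 members tested were lower and 15 higher, against 3.82% lower and 3.07% higher among all 13436 genes tested. Of the lower segments 15 were proximal (of 19 tested), 20 intermediate (of 35) and 10 distal (of 92), and all 15 higher ones were distal. With a pseudocount of 5 instead of 1 these counts dropped to 4 proximal, 10 intermediate and 2 distal segments lower and 9 distal ones higher. The median log2 fold change was -2.50 for proximal, -2.12 for intermediate and 0.21 for distal segments, beside -0.11 for all genes. Of 108 V genes 44 were lower and 8 higher, and of 38 V pseudogenes, 32 of which were distal, 1 was lower and 7 were higher. The difference between genes and pseudogenes was not tested.

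Among the most reduced segments, several had no read at all in Vav-Cre Pax5fl/fl cells. Ighv3-6 (chr12:114288152-114288582, 761 kb) was at 27.9 and 34.8 TPM in Pax5+/+, 22.1 and 19.2 in Pax5+/-, 10.7 and 11.1 in Pax5R31Q/- and 0 in both Vav-Cre Pax5fl/fl libraries. The 4 genotypes did not overlap, and the level in Pax5+/+ was at least 42.9-fold higher than the floor of 3 reads per Vav-Cre Pax5fl/fl library (log2 fold change -5.01, SE 0.17, adjusted p = 2.85e-06). Ighv13-2, with 19.8 and 7.85 TPM in Pax5+/+, and Ighv3-8, with 16.0 and 9.0 TPM, were also at 0 in both libraries, which puts Pax5+/+ at least 19.4-fold and at least 19.3-fold higher. Ighv2-9 (chr12:113879096-113879541, 352 kb), a proximal segment, was at 20.05 and 19.14 TPM in Pax5+/+ and at 0.275 and 0.782 TPM in Vav-Cre Pax5fl/fl cells, a log2 fold change of -3.77 (SE 0.20, adjusted p = 1.81e-05). Besides the 24 members at 0 in every library, 32 had no read in either Vav-Cre Pax5fl/fl library, 18 of them among the tested ones (4 proximal, 11 intermediate and 2 distal segments and 1 constant-region unit).

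Among the proximal segments the smallest reductions were close to the D segments, where the 4 fold changes nearest to 0 belonged to Ighv5-2, Ighv5-6, Ighv5-1 and Ighv2-2, all within 100 kb. Ighv5-2 (chr12:113578504-113578990, 51.7 kb), the most abundant proximal segment, was at 38.47 and 20.99 TPM in Pax5+/+ and 16.7 and 22.9 in Vav-Cre Pax5fl/fl libraries, which overlapped (log2 fold change -0.52, SE 0.30, adjusted p = 0.213). Ighv5-1, a pseudogene at 46.1 kb and the V segment next to the D cluster, was at 4.48 and 2.51 against 1.13 and 0.401 TPM, a log2 fold change of -1.34 (SE 0.31, adjusted p = 0.0128) at levels under the 5 TPM of the call rule. Ighv2-2 (chr12:113588267-113588702, 61.5 kb) fell from 32.1 and 33.6 to 8.50 and 9.25 TPM (log2 fold change -1.78, SE 0.15, adjusted p = 0.000135). By bins of 250 kb, 10 of 13 tested segments were lower in the first bin and 10 of 14 in the second, with median log2 fold changes of -2.27 and -3.05. Between 1000 and 1500 kb 5 of 40 were lower and 3 higher, and in the last bin, from 2250 kb on, 0 of 15 were lower and 7 were higher.

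The 4 most abundant intermediate segments were lower too, whereas none of the 4 tested segments of the family Ighv10 was called. Ighv14-2 (chr12:113994469-113994898, 468 kb) was at 102 and 77.3 TPM in Pax5+/+, 105 in both Pax5+/-, 94.9 and 66.5 in Pax5R31Q/- and 35.8 and 2.42 in Vav-Cre Pax5fl/fl libraries. The 2 Vav-Cre Pax5fl/fl values were far apart but below all others (log2 fold change -3.00, SE 0.90, adjusted p = 0.0354). Ighv9-3 had 39.7 and 20.4, 38.6 and 33.0, 36.8 and 16.7, and 6.53 and 6.25 TPM in the same order of genotypes. Ighv14-3, at 54.2 and 16.8, 22.2 and 34.9, 26.1 and 21.2, and 4.00 and 1.06 TPM, and Ighv14-4, at 43.4 and 17.9, 23.5 and 36.4, 26.38 and 23.02, and 11.4 and 4.44 TPM, were likewise lowest in Vav-Cre Pax5fl/fl cells without overlap. Their log2 fold changes were -1.999, -3.29 and -1.82. Ighv14-2 changed by -1.28 without Vav-Cre Pax5fl/fl library 2 and by -4.71 without library 1, and did not pass the adjusted p when either Pax5+/+ library was left out, and Ighv14-4 did not pass without Pax5+/+ library 1 (-1.21) or without Vav-Cre Pax5fl/fl library 2. Ighv15-1, with no read in Pax5+/+ and a mean of 3.99 TPM in Vav-Cre Pax5fl/fl cells, was an intermediate segment that passed the adjusted p in the other direction, as did Ighv10-2 and Ighv10-4, all 3 with means under 5 TPM and named after their values were seen.

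At the far end, single Ighv1 segments were much higher in Vav-Cre Pax5fl/fl cells. Ighv1-85 (chr12:116000028-116000461, 2473 kb) was at 9.62 and 5.05 TPM in Pax5+/+, 5.25 and 6.31 in Pax5+/-, 4.91 and 3.35 in Pax5R31Q/- and 279 and 254 in Vav-Cre Pax5fl/fl libraries, a 36.3-fold higher mean than in Pax5+/+ (log2 fold change 5.06, SE 0.28, adjusted p = 2.04e-05). Ighv1-78 (chr12:115868773-115869227, 2342 kb) was at 7.64 and 5.14, 3.92 and 3.14, 2.48 and 2.93, and 95.7 and 83.9 TPM (log2 fold change 3.64, SE 0.21, adjusted p = 2.44e-05). Both segments were low in all 6 libraries of the first 3 genotypes. Ighv1-84 rose from 9.21 and 1.61 to 37.5 and 52.2 TPM (log2 fold change 3.13, SE 0.55, adjusted p = 0.00381), and the pseudogene Ighv1-30 from 1.85 and 0 to 20.3 and 10.5 TPM (log2 fold change 3.21, SE 0.57, adjusted p = 0.00398). Leaving out Pax5+/+ library 1 or 2 gave 4.12 or 2.15 for Ighv1-84 and 3.97 or 2.46 for Ighv1-30, still past the adjusted p. Of the 15 higher segments, 11 lay beyond 1671 kb, and their distances ran from 960 to 2473 kb. The share of 50-base stretches that were unique was 61.7% in Ighv1-85, 82.7% in Ighv1-78, 70.1% in Ighv1-30 and 31.3% in Ighv1-84. Ighv1-86, a pseudogene at 2483 kb and the last V segment of the locus, was low in every genotype, at 3.46 and 0 TPM in Pax5+/+ and 0.847 and 1.40 TPM in Vav-Cre Pax5fl/fl cells.

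Not all distal segments behaved this way, as 10 were called lower in Vav-Cre Pax5fl/fl cells. They were Ighv1-18, Ighv1-19, Ighv1-26, Ighv1-47, Ighv1-49, Ighv1-57, Ighv1-62-2, Ighv1-62-3, Ighv1-67 and Ighv8-2, with the largest log2 fold change, -3.41, in Ighv1-26. Only 5.71% of the 50-base stretches were unique in Ighv1-62-2 and 19.5% in Ighv1-62-3, against at least 52.0% in the others. Markers of other cell types moved in the same libraries. The sum of 4 plasma cell markers was 32.3 to 34.4 TPM in Pax5+/+ and 296 to 439 TPM in Vav-Cre Pax5fl/fl cells, where Jchain alone gave 273 and 408 TPM, and the sum of 6 T cell markers was 65.8 to 66.5 against 277 to 278 TPM, of which Lck gave 273 and 271 TPM and Cd3e 0.137 and 0 TPM. The sum of 6 myeloid markers was 181 to 220 TPM in Pax5+/+ and 121 to 737 TPM in Vav-Cre Pax5fl/fl cells. Lower sums without overlap were those of 4 pre-B markers (67.0 to 94.9 against 171 to 219 TPM in Pax5+/+), 6 mature B cell markers (57.2 to 61.5 against 105 to 154 TPM) and 5 erythroid markers (13.8 to 37.0 against 78.9 to 132 TPM), and the sum of 4 NK cell markers overlapped (14.9 to 26.2 against 16.8 to 18.1 TPM). The pre-B sum was mostly Irf4 in Pax5+/+ (184 and 146 against 31.07 and 31.10 TPM), whereas Il2ra rose from 13.0 and 6.55 to 26.4 and 50.4 TPM. Of the mature B cell list Cxcr5 was higher, at 40.9 and 35.8 against 14.2 and 31.5 TPM in Pax5+/+. The other markers of these pre-B and mature B cell lists were lower. Of these lists 1 erythroid marker, Hba-a1, was at 0 in both Vav-Cre Pax5fl/fl libraries, and the part of such cells in the V segment levels was not tested.

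**Figure D4:**
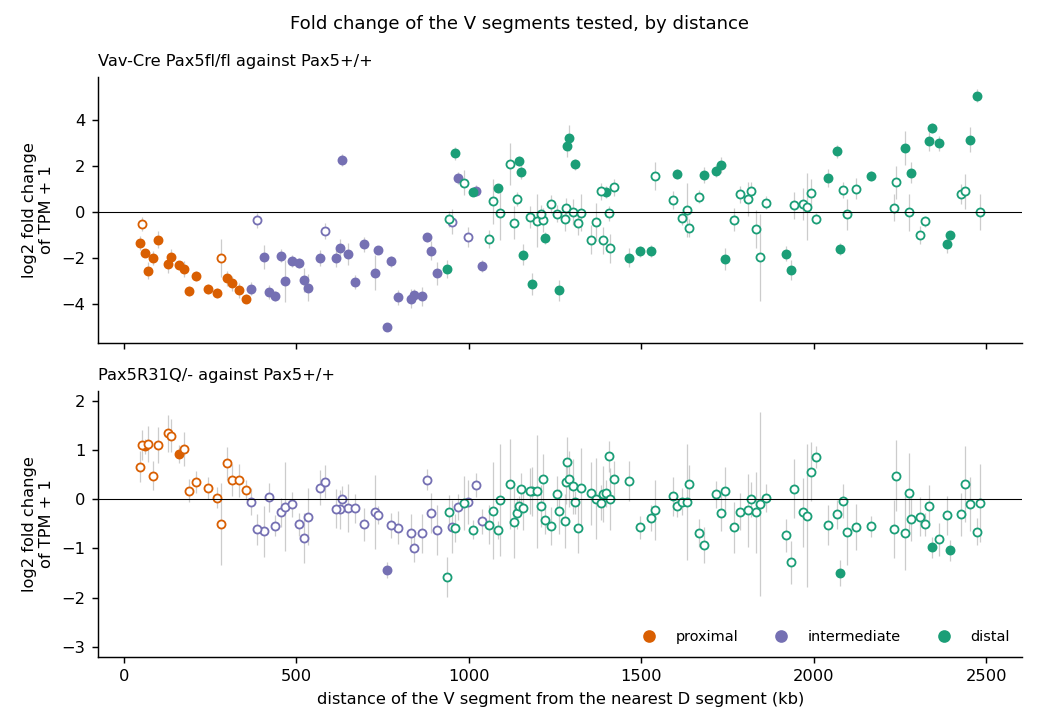
Log2 fold change (on TPM + 1, y axis) of the 146 V segments tested against their distance from the nearest D segment (kb, x axis), for Vav-Cre Pax5fl/fl (top) and Pax5R31Q/- (bottom) against the same 2 Pax5+/+ libraries. Filled points had an adjusted p under 0.05 and bars are standard errors. In the upper panel proximal segments lay below 0, and in the lower panel 18 of 19 lay above 0, of which 2 passed the test.

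The comparison of Pax5R31Q/- with Pax5+/+ pro-B cells addressed the mutant protein together with the loss of an allele, which cannot be told apart in it. No member was called, beside 0.558% lower and 0.298% higher among all genes tested. With limma, 20 members were lower and 10 higher at an unadjusted p under 0.05, which is 13.0% and 6.49% of those tested beside 9.94% and 8.82% of all genes. At an adjusted p under 0.05, with a smaller change or a lower level than the rule asks, 5 were lower and 2 higher, or 3.25% and 1.3% beside 2.55% and 1.62% of all genes, so that the members' shares were near those of all genes, while limma-voom on the whole reads recovered from the TPM steps called 1 lower, Ighv1-67. Both members that passed in the upward direction were proximal. Ighv2-2 was at 32.1 and 33.6 TPM in Pax5+/+, 34.1 and 32.9 in Pax5+/- and 80.6 and 61.3 in Pax5R31Q/- libraries, a ratio of 2.16 (log2 fold change 1.08, SE 0.15, adjusted p = 0.0102). Ighv2-5 (chr12:113685482-113686045, 159 kb) was at 9.43 and 13.3, 13.8 and 13.4, and 23.5 and 20.5 TPM, a ratio of 1.94 (log2 fold change 0.91, SE 0.19, adjusted p = 0.0393). In these segments 46.7% and 65.4% of the 50-base stretches were unique, respectively. Ighv2-2 did not pass the adjusted p when Pax5+/+ library 2 or Pax5R31Q/- library 1 was left out, and Ighv2-5 did not when any library of either genotype was left out, nor with limma-voom (adjusted p = 0.0531).

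Other proximal segments had values in the same direction that did not pass the test. Ighv5-2 was at 75.2 and 51.6 TPM in Pax5R31Q/- against 38.47 and 20.99 in Pax5+/+ and 45.3 and 40.8 in Pax5+/- libraries (log2 fold change over Pax5+/+ 1.10, SE 0.30, adjusted p = 0.0999). Ighv5-4 was at 45.3 and 22.6 against 16.2 and 12.3 TPM (1.13, SE 0.37, adjusted p = 0.156), and Ighv5-6 at 36.81 and 19.97 against 17.3 and 8.44 TPM (1.10, SE 0.36, adjusted p = 0.156). In all 3 both Pax5R31Q/- libraries were above both Pax5+/+ libraries. Of the 19 proximal segments tested, 18 had a log2 fold change above 0, with a median of 0.66 beside 0.04 for all genes, and in 11 the libraries of the 2 genotypes did not overlap, which was the case in that direction for 34.6% of all genes. The median was 0.51, with 19 of 19 above 0, against Pax5+/-, beside 0.01 for all genes, and the median of Pax5+/- against Pax5+/+ was 0.07. Both comparisons of Pax5R31Q/- use the same Pax5R31Q/- libraries, so that they are not independent. Marker sums moved in the same libraries, with 6 mature B cell markers at 46.3 to 48.9 TPM in Pax5R31Q/- against 105 to 154 TPM in Pax5+/+, 6 myeloid markers at 363 to 378 against 181 to 220 TPM, 6 T cell markers at 96.6 to 100.2 against 65.8 to 66.5 TPM, and 4 plasma cell markers at 45.0 to 49.8 against 32.3 to 34.4 TPM. The last 3 sums were mostly a single gene each in Pax5R31Q/- libraries, S100a8 at 305 TPM in both for the myeloid list, Lck at 94.4 and 98.7 TPM for the T cell list and Sdc1 at 42.7 and 37.6 TPM for the plasma cell list, and the myeloid marker Itgam was lower, at 17.1 and 14.1 against 23.4 and 22.3 TPM. No marker of these lists was at 0 in both libraries of either genotype, and their part in the proximal values was not tested.

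Lower levels in Pax5R31Q/- cells were seen in single segments outside the proximal families. Ighv3-6 fell to a ratio of 0.348 (log2 fold change -1.44, SE 0.17, adjusted p = 0.00484), and the Pax5+/- libraries were between (log2 fold change over Pax5+/+ -0.57, SE 0.17, adjusted p = 0.514). Ighv1-67 (chr12:115603940-115604376, 2077 kb) was at 13.1 and 17.4 TPM in Pax5+/+, 10.3 and 8.62 in Pax5+/-, 3.48 and 6.28 in Pax5R31Q/- and 4.54 and 4.03 in Vav-Cre Pax5fl/fl libraries (log2 fold change -1.50, SE 0.26, adjusted p = 0.0215 for Pax5R31Q/- over Pax5+/+). Ighv1-81, at 16.0 and 17.7 against 7.77 and 7.53 TPM, and Ighv1-78, at 7.64 and 5.14 against 2.48 and 2.93 TPM, had log2 fold changes of -1.04 and -0.98 (adjusted p = 0.0357 and 0.0449), and neither passed with limma-voom (adjusted p = 0.0562 and 0.149). The median over the 92 distal segments was -0.15 and over the 35 intermediate ones -0.29. In Ighv1-64 and Ighv1-53 the difference was smaller than its error (log2 fold changes -0.34, SE 1.46, and -0.06, SE 1.17).

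Between Pax5+/- and Pax5+/+ cells no member was called, beside 0.0223% lower and 0% higher among all genes, and 5 members were lower and 0 higher at an unadjusted p under 0.05 (3.25% and 0% beside 3.15% and 2.91% of all genes), with none called by limma-voom under the same rule. Between Pax5R31Q/- and Pax5+/-, which share the loss of an allele, no member was called either, beside 0.119% lower and 0.0893% higher, while 10 were lower and 8 higher at an unadjusted p under 0.05 (6.49% and 5.19% beside 5.24% and 3.55% of all genes) and limma-voom called none. The 1 member with an adjusted p under 0.05 was Ighv2-2, which was higher in Pax5R31Q/- cells by 1.05 on the log2 scale (SE 0.15, adjusted p = 0.04).

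Pax5R31Q/- and Vav-Cre Pax5fl/fl cells were far apart in the proximal and intermediate classes. Of the 154 members tested, 38 were higher in Pax5R31Q/- cells and 18 lower, beside 3.07% higher and 2.43% lower among all genes. The higher ones were 18 of 19 proximal, 15 of 35 intermediate and 5 of 92 distal segments (Ighv1-18, Ighv1-19, Ighv1-26, Ighv1-47 and Ighv1-57), and all 18 lower ones were distal. With a pseudocount of 5 instead of 1 these counts dropped to 15 proximal, 4 intermediate and 2 distal segments higher and 10 distal ones lower. The median log2 fold change was 3.49 for proximal, 1.81 for intermediate and -0.33 for distal segments, beside 0.13 for all genes. Ighv2-9 was at 23.2 and 21.5 against 0.275 and 0.782 TPM (log2 fold change 3.95, SE 0.20, adjusted p = 2.97e-05) and Ighv5-17 at 21.8 and 13.8 against 0.492 and 0.175 TPM (3.79, SE 0.33, adjusted p = 0.000211). Ighv5-4 and Ighv5-15 followed with log2 fold changes of 3.68 and 3.61. All 4 belong to the proximal families. In the other direction, Ighv1-85 was at 4.91 and 3.35 against 279 and 254 TPM (log2 fold change -5.72, SE 0.28, adjusted p = 2.61e-05), and Ighv1-78 (-4.61), Ighv1-79 (-3.79) and Ighv1-73 (-3.48), the last 2 pseudogenes, followed, of which Ighv1-73 did not pass the adjusted p without Pax5R31Q/- library 1 (-2.65) or Vav-Cre Pax5fl/fl library 2. Leaving out a library in turn gave -4.35 to -3.24 for Ighv1-79. Ighv2-7 was the 1 proximal segment that was not called. This comparison and that with Pax5+/+ share the Vav-Cre Pax5fl/fl libraries, so that their calls are not independent.

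The J segments, to which the D segments are joined in the first step, were present at 35.2 to 189 TPM in all libraries. Ighj1 was at 134 and 71.4 TPM in Pax5+/+, 70.9 and 90.5 in Pax5+/-, 54.2 and 47.1 in Pax5R31Q/- and 152 and 97.5 in Vav-Cre Pax5fl/fl libraries. It was lower in Pax5R31Q/- than in Vav-Cre Pax5fl/fl cells (log2 fold change -1.25, SE 0.32, adjusted p = 0.0202) without reaching 3-fold, whereas Ighj4 was higher in Pax5R31Q/- cells (0.84, SE 0.17, adjusted p = 0.0084) but did not pass with limma-voom (adjusted p = 0.0642). Ighj2, at 110 and 72.5, 73.7 and 84.1, 66.8 and 52.1, and 36.9 and 48.8 TPM, and Ighj4, at 189 and 137, 140 and 156, 146 and 167, and 81.2 and 93.0 TPM, were lower in Vav-Cre Pax5fl/fl than in Pax5+/+ cells (log2 fold changes -1.06 and -0.88, adjusted p = 0.0103 and 0.0058). Ighj3 varied between 35.2 and 174 TPM within Pax5+/+ alone, with 110 and 132 TPM in Pax5+/-, 138 and 115 in Pax5R31Q/- and 102 and 81.1 in Vav-Cre Pax5fl/fl libraries. No J segment passed the test between Pax5R31Q/- and Pax5+/+ cells.

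The constant regions were represented by germline, membrane and secreted units, of which 14 of 22 were at 0 in every library, among them the membrane and secreted units of IGHM and of every IGHG class and all units of IGHE and IGHG1. How reads of exons that such units share were divided is not given in the sources used here, so that a value of 0 is that of the unit and not of the gene. The IGHM germline unit, from the first constant region to be transcribed (Ighm, chr12:113418558-113422730), was at 53.9 and 59.3 TPM in Pax5+/+, 41.7 and 48.8 in Pax5+/-, 42.0 and 49.0 in Pax5R31Q/- and 23.8 and 32.8 in Vav-Cre Pax5fl/fl libraries. It was lower in Vav-Cre Pax5fl/fl than in Pax5+/+ cells (log2 fold change -0.99, SE 0.18, adjusted p = 0.0043) and higher in Pax5R31Q/- than in Vav-Cre Pax5fl/fl cells (0.68, adjusted p = 0.0228), whereas between Pax5R31Q/- and Pax5+/+ it did not pass the test (-0.31, SE 0.18, adjusted p = 0.38). The IGHD membrane unit (Ighd, chr12:113406604-113416324) was at 10.6 and 9.25, 7.60 and 8.71, 10.3 and 7.08, and 3.45 and 3.58 TPM and was also lower in Vav-Cre Pax5fl/fl cells (-1.27, SE 0.20, adjusted p = 0.0023).

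The IGHG2b germline unit (Ighg2b, chr12:113302965-113307933) was low in all genotypes and highest in Pax5+/+. It was at 1.93 and 1.66 TPM in Pax5+/+ (319 and 244 reads), 0.57 and 0.77 in Pax5+/- (92 and 123 reads), 0.012 in both Pax5R31Q/- libraries (2 reads each) and 0 in both Vav-Cre Pax5fl/fl libraries. The last 2 genotypes were both under the floor of 3 reads and were not distinguishable at this depth, and the others did not overlap with them or with each other. Against Pax5+/+ the log2 fold change was -1.46 in Pax5R31Q/- (SE 0.17, adjusted p = 0.00476), -1.48 in Vav-Cre Pax5fl/fl (SE 0.17, adjusted p = 0.0005) and -0.75 in Pax5+/- cells (SE 0.17, adjusted p = 0.3), and Pax5R31Q/- against Pax5+/- gave -0.72 (adjusted p = 0.165). These values understate the ratio of a low unit, as the level in Pax5+/+ was at least 83.3-fold higher than the floor of 3 reads in Vav-Cre Pax5fl/fl libraries. With limma-voom on the recovered reads, which adds no such constant on the TPM scale, the log2 fold change was -1.46 for Pax5+/- over Pax5+/+ (SE 0.22, adjusted p = 0.0487) and -5.43 for Pax5R31Q/- over Pax5+/- (SE 0.50, adjusted p = 0.0023), so that both differences passed there. Of the remaining units, IGHA secreted was at 0.33 and 1.58, 1.88 and 1.64, 0 and 0.05, and 0 and 0.51 TPM and passed no test, IGHD secreted stayed under 0.5 TPM, and IGHA membrane, IGHG2c germline and IGHG3 germline had at most 18 reads in any library.

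Of the 23 genes listed for recombination, partners of the mu chain and regulators of the locus, 7 were lower and 1 higher in Vav-Cre Pax5fl/fl than in Pax5+/+ cells, beside 3.82% lower and 3.07% higher among all genes. None was called in Pax5R31Q/- (0.558% and 0.298% of all genes) or Pax5+/- (0.0223% and 0%) against Pax5+/+ cells. Rag2, which encodes a subunit of the recombinase, was at 128 and 132 TPM in Pax5+/+, 86.3 and 99.9 in Pax5+/-, 133 and 131 in Pax5R31Q/- and 21.95 and 35.02 in Vav-Cre Pax5fl/fl libraries (log2 fold change over Pax5+/+ -2.19, SE 0.20, adjusted p = 0.000177). Rag1, the other subunit, was at 687 and 436 against 283 and 331 TPM, a log2 fold change of -0.84 (adjusted p = 0.018) under 3-fold. The other lower genes were Cd79a, Igll1 and Vpreb1, which encode partners of the mu chain, the transcription factors Ebf1 and Tcf3, and Ezh2, a histone methyltransferase. Wapl, which releases cohesin from DNA and is known as a repression target of Pax5 in locus contraction, was the higher gene, at 10.3 and 6.81 TPM in Pax5+/+, 8.84 and 10.1 in Pax5+/-, 8.48 and 8.10 in Pax5R31Q/- and 23.8 and 46.3 in Vav-Cre Pax5fl/fl libraries (log2 fold change 1.86, SE 0.31, adjusted p = 0.00306). It was also the 1 gene of the list called lower in Pax5R31Q/- than in Vav-Cre Pax5fl/fl cells, where 4 were higher, beside 2.43% lower and 3.07% higher among all genes.

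Within the locus the lists held 75 of 41983 peaks from Rag2-/- cells (0.179%) and 22 of 18821 peaks from Pax5R31Q/- cells (0.117%), so that the Pax5R31Q/- list was shorter in the locus and over the whole genome, and 14 of the 75 (18.7%, exact 95% confidence interval 10.6 to 29.3, for counting error only) overlapped a Pax5R31Q/- peak by at least 1 base. Genome-wide it was 15727 of 41983 peaks (37.5%, interval 37.0 to 37.9). The lists give no peak height, each genotype had 1 library, and Rag2 and Pax5 genotype cannot be told apart between them. All 5 peaks over the D segments and all 5 among the proximal V segments were in the Rag2-/- list alone. The intermediate region held 12 Rag2-/- and 3 Pax5R31Q/- peaks (2 common), the distal region 47 and 16 (9 common), and the constant-region side 6 and 3 (3 common). Of the last, 2 common peaks lay between Ighm and Ighj4 (chr12:113426525-113426834 and chr12:113427346-113427732).

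**Figure D5:**
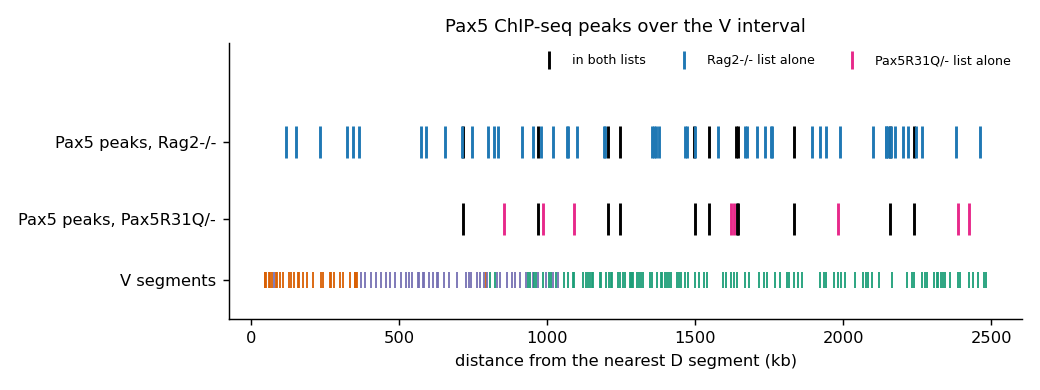
Pax5 ChIP-seq peaks of Rag2-/- and Pax5R31Q/- pro-B cells and the 181 V segments (rows of marks) against the distance from the nearest D segment (kb, x axis). Black marks are peaks found in both lists. No Pax5R31Q/- peak lay among the proximal segments, where the Rag2-/- list had 5.

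The peaks found in the Pax5R31Q/- list alone lay almost all on V segments. Of 8 such peaks 7 overlapped a V segment, all of them of the Ighv1 family (Ighv1-5, Ighv1-12, Ighv1-52, Ighv1-53, Ighv1-64, Ighv1-80 and Ighv1-82), and all 7 held the recombination signal sequence of that segment. Of the 61 peaks in the Rag2-/- list alone, 6 overlapped a V segment and 4 of these held its signal sequence, and of the 14 common peaks 4 overlapped a V segment. Ighv1-64 and Ighv1-53, which had 1 high and 1 low library in each of the first 3 genotypes, were among the first group. Ighv1-12 of that group was at 37.2 and 3.97 TPM in Pax5+/+, 9.16 and 20.8 in Pax5+/-, 3.72 and 38.1 in Pax5R31Q/- and 12.7 and 11.7 in Vav-Cre Pax5fl/fl libraries, and Ighv1-82 at 36.3 and 15.9, 19.5 and 27.9, 15.44 and 23.97, and 30.5 and 57.2 TPM. In all 7 segments the Pax5R31Q/- and Pax5+/+ libraries overlapped. The genome sequence (mm10, minus strand, 5′ to 3′) under 1 peak of each list, Ighv1-64 for Pax5R31Q/- alone (chr12:115507470-115507755) and Ighv1-73 for Rag2-/- alone (chr12:115790467-115790743), shows the end of the V segment followed by the heptamer and nonamer in capitals.
Ighv1-64: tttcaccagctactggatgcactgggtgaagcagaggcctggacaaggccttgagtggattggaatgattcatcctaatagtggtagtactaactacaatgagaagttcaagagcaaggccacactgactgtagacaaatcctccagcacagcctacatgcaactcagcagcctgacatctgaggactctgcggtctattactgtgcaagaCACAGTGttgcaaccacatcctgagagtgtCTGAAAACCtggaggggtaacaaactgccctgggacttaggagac
Ighv1-73: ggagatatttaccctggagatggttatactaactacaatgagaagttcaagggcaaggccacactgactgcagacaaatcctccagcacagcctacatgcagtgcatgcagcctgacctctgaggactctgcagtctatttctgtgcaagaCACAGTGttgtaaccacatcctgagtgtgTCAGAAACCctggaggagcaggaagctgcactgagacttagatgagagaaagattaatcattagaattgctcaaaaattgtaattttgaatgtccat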

How the data were processed

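Per the labels, polyadenylated RNA of sorted bone marrow cells and Pax5 ChIP DNA of cultured pro-B cells were sequenced. The authors aligned reads to mm10 (the processing notes name STAR 2.4.2, Bowtie2 2.3.5.1, SAMtools 1.9, Picard 2.18.27 and MACS), counted them per gene with featureCounts and deposited TPM values, which are relative to transcript length and library total, and peak lists whose score column, as deposited, is 0 throughout. Reads that mapped to several places were left out by the authors, which lowers the values of V segments that resemble each other. The study's own list of regulated genes left out immunoglobulin genes. The labels give groups and no replicate numbers.

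From TPM, log2(TPM + 1) of genes with at least 1 TPM in at least 1 library was fitted with limma 3.58.1 (R 4.3.3, eBayes with trend, 4 genotypes in 1 fit, Benjamini-Hochberg over 13436 genes), in place of a count model, because the files hold TPM. Fold changes on this scale understate those of low genes. Calls needed an adjusted p under 0.05, more than 3-fold and a mean above 5 TPM. Whole reads were recovered from the TPM steps for 100% of 18206 genes (tolerance 0.001 read) and used in a limma-voom alternative. V segments had names, positions and types from GENCODE M21 by gene identifier. Named are every constant-region unit and J segment, the 4 most abundant V segments of each class, the 4 called members with the largest change in each direction and comparison, the first and last V segment of the locus, and a list of 23 pathway genes. Some others were named after their values were seen. The members, lists and rules were chosen with earlier results of these data known. Scripts were tested on simulated data. Recombination signals were searched as CACAGTG on the V strand within 12 bases of the V end, with a spacer of 22, 23 or 24 bases and the nonamer closest to ACAAAAACC. A gene of the pro-B marker list is not reported here.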

Additional observations from a re-analysis of the deposited data

How the results depend on the processing

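With a pseudocount of 5, 25 members were called between Vav-Cre Pax5fl/fl and Pax5+/+ cells (16 lower, 9 higher, beside 2.24% and 1.61% of all genes) and 31 between Pax5R31Q/- and Vav-Cre Pax5fl/fl cells (10 lower, 21 higher, beside 1.23% and 1.76%). With the adjusted p alone, 64 were lower and 26 higher in Vav-Cre Pax5fl/fl than in Pax5+/+ cells (41.6% and 16.9% of the members beside 19.7% and 16.2% of all genes), 7 passed between Pax5R31Q/- and Pax5+/+ (5 lower, 2 higher) and 1 was higher in Pax5R31Q/- than in Pax5+/- cells. With a limit of 2-fold, 4 were called between Pax5R31Q/- and Pax5+/+ (3 lower, 1 higher, beside 1.24% and 0.804% of all genes) and 1 was higher in Pax5R31Q/- than in Pax5+/- (beside 0.208%). Between Pax5R31Q/- and Pax5+/+ a pseudocount of 0.1 and limma-voom each called 1 lower member, Ighv1-67. Leaving out a library in turn gave 49 to 62 calls between Vav-Cre Pax5fl/fl and Pax5+/+ (34 to 48 lower, 13 to 15 higher), 43 to 53 between Pax5R31Q/- and Vav-Cre Pax5fl/fl (14 to 17 lower, 29 to 36 higher), 0 to 3 between Pax5R31Q/- and Pax5+/+ (0 to 1 lower, 0 to 2 higher, with Ighj3, Ighv3-6 and Ighv5-9 called without Pax5+/+ library 1), and 0 in the other comparisons. Median-ratio scaling moved the median of all genes between Vav-Cre Pax5fl/fl and Pax5+/+ from -0.11 to -0.03 and between Pax5R31Q/- and Vav-Cre Pax5fl/fl from 0.13 to 0.01. The distal share by position, beyond 1671 kb, was 31.3%, 28.2%, 27.1% and 66.3% in Pax5+/+, Pax5+/-, Pax5R31Q/- and Vav-Cre Pax5fl/fl cells, and without the top segment it was 90.2% in the last. With libraries left out, the share equals that of the other library, 48.8 to 61.2%, 47.1 to 58.7%, 33.8 to 63.9% and 90.8 to 92.7%. The causes were not tested. Of 48 pairs of a named gene and a comparison with an adjusted p under 0.05, 720 repeats under other settings gave 630 that passed again, 90 in 22 pairs that did not, and 0 in the other direction. Among these repeats were settings that change only the call rule, namely the 2-fold limit, the adjusted p alone and a mean above 1 TPM. They leave the adjusted p as it was, so that such repeats could not fail and tell nothing of stability. The share of common peaks was 18.7% with 50% overlap, 17.3% with midpoints within 200 bases and 21.5% with 50 kb added on each side. No paired analysis was possible because the labels give no replicate numbers. Depth limits segments with few reads, for which 3 reads per library were taken as the floor.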

Other observations

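The 7 V segments that were more than 3-fold higher in library 1 of Pax5+/+, library 2 of Pax5+/- and library 2 of Pax5R31Q/- than in the other library of the same genotype were Ighv3-4, Ighv1-15, Ighv1-20, Ighv1-37, Ighv1-53, Ighv1-62 and Ighv1-64, 6 of them distal. They were chosen after their values were seen. Their summed level was 377 and 62.1 TPM in Pax5+/+, 54.6 and 261 in Pax5+/-, 36.4 and 497 in Pax5R31Q/- and 141 and 122 in Vav-Cre Pax5fl/fl libraries. The pseudogene Ighv1-62 of this group was at 83.4 and 4.37, 5.26 and 49.5, 2.26 and 121, and 3.13 and 6.07 TPM. Without the 7 segments the distal share was 53.7% and 46.1%, 44.8% and 51.9%, 32.2% and 51.7%, and 89.9% and 92.1%. V pseudogenes took 7.92% and 5.25% of the V segment sum in Pax5+/+, 4.19% and 8.01% in Pax5+/-, 3.89% and 11.02% in Pax5R31Q/- and 11.3% and 14.2% in Vav-Cre Pax5fl/fl libraries.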
